A study of Homo sapiens with 6 samples.

Results

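Immunoglobulin transcripts were examined probe set by probe set in MM.1S, a cell line established from human multiple myeloma. Each probe set was kept separate. A probe set is a group of short oligonucleotides on an Affymetrix array that together read 1 transcript or a family of close copies. Members were taken from the platform annotation: every listed symbol had to lie in an immunoglobulin locus, and at least 1 had to name a variable, joining or constant segment. The probe sets of JCHAIN and MZB1 were added. This gave 84 of 22215 probe sets, with 43 from the heavy chain locus (IGH), 19 from the kappa light chain locus (IGK), 20 from the lambda light chain locus (IGL), and 1 each for JCHAIN and MZB1. Of the 84, 43 were annotated with 1 symbol and 41 with several, and the latter are called by probe set identifier and locus.

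A plasma cell makes antibody from 1 rearranged heavy chain gene and 1 rearranged light chain gene, and it uses either kappa or lambda. Heavy and light chains are joined in the endoplasmic reticulum with the help of chaperones. The J chain, encoded by JCHAIN, links units of polymeric IgA and IgM, and MZB1 is an endoplasmic reticulum protein that assists antibody assembly and secretion. Myeloma is a cancer of plasma cells, and a myeloma line carries the rearrangement of its founding cell. MM.1S is known as a line that makes lambda light chains.

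One arm received enzastaurin, which blocks protein kinase C beta, and was collected at 3, 6 and 12 h. The controls were MM.1S cells without the inhibitor, collected at those times. Each treatment and time had 1 array, 6 in all, and the dose is not given in the sources used here. The values are MAS5 intensities, which are linear and depend on the probes as well as on the RNA, so a level of 1 probe set is not an amount relative to another.

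Median intensity over all probe sets lay between 62.2 and 67.6 on the 6 arrays. The 9 plasma cell markers summed to 16773 to 21547 on the untreated arrays and 12831 to 16790 on the treated arrays, and CD27 was the lowest of them. Of the markers of other cell types, LYZ and S100A9 of monocytes were near 0, while HBB and HBD of the erythroid list had geometric means of 264 and 588. Ribosomal RNA control probe sets, which read carry-over of ribosomal RNA, divided the arrays: their mean log2 intensity was 3.39 on the untreated 3 h array, 3.79 on the enzastaurin 6 h array and 3.02 on the enzastaurin 12 h array. On the untreated 6 h, untreated 12 h and enzastaurin 3 h arrays it was 11.98, 9.29 and 9.99.

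Promoters are shown for the only members with a promoter in the RefSeq table, JCHAIN and MZB1, from 250 bases before to 50 bases after the start site (GRCh38.p14). JCHAIN lies at chr4:70666459-70666758 and MZB1 at chr5:139389864-139390163, both on the minus strand, and each sequence is written 5′ to 3′ along its gene. Capitals mark matches on either strand to TGCAAAT, which is the octamer motif ATGCAAAT of immunoglobulin promoters without its first base, to ACGTG, the core of sites for unfolded protein response factors such as XBP1, and to CCAAT.
JCHAIN: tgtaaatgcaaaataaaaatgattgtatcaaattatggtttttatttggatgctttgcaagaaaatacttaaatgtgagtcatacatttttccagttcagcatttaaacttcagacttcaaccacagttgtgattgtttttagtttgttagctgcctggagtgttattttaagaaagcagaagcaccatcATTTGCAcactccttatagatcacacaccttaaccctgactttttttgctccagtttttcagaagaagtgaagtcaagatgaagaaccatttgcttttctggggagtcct
MZB1: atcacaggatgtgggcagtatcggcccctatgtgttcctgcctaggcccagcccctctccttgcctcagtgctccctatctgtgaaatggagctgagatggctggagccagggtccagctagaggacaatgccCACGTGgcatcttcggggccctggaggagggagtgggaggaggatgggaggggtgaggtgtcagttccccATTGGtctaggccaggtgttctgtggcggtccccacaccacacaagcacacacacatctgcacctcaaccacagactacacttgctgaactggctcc
JCHAIN held 1 match to TGCAAAT, which began 60 bases upstream of the start site, and neither promoter held the full octamer. MZB1 held 2 overlapping matches to ACGTG, 1 on each strand, 117 and 116 bases upstream, and 1 match to CCAAT 47 bases upstream. Over 35116 promoters of the same length, 1.77% held ATGCAAAT, 4.20% TGCAAAT, 21.4% ACGTG and 34.6% CCAAT. These are matches of letters and not shown to be sites.

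The brightest light chain probe sets were lambda. Of the 84 members, 12 had a geometric mean above 133.4, the 90th percentile of 20 markers of T, NK, monocytic and erythroid cells: 5 from IGH, 5 from IGL, JCHAIN and MZB1. None of the 19 IGK members was above that level, and the highest IGK geometric mean was 127.7. On single arrays 17 of the 19 stayed below it throughout, and 211643_x_at and 221651_x_at passed it on some. Few markers set the level of 133.4, which lies between TRAT1 at 118.8 and HBB at 264.3. The next lower marker was ALAS2 at 46.5. Above the markers' median of 34.1 there were 32 members, with 11 from IGH, 8 from IGK and 11 from IGL, so at that level kappa members were above the markers too. Of the 9 members with a geometric mean of 1000 or more, 5 were lambda, 2 were heavy chain, and the others were JCHAIN and MZB1.

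**Figure D1:**
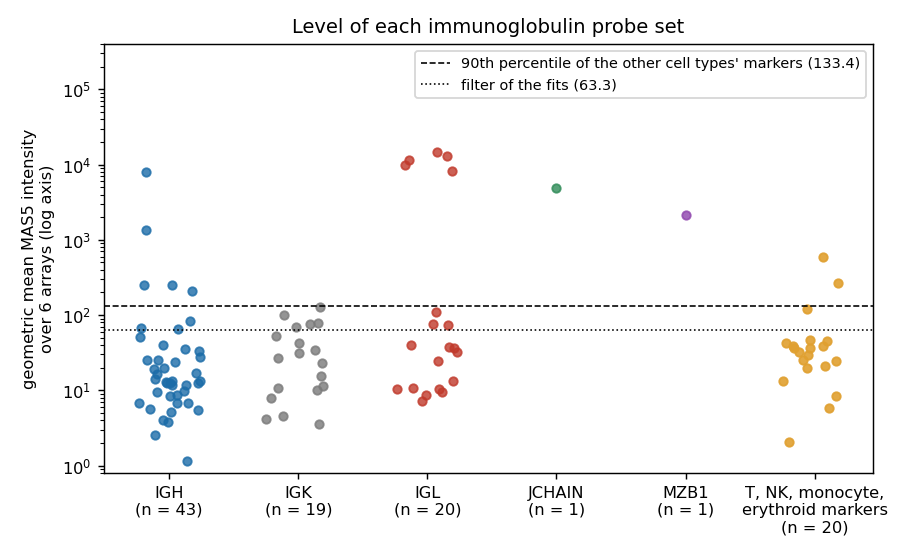
Geometric mean MAS5 intensity over 6 arrays (log axis) of each member by locus, with markers of other cell types at the right. Each point is 1 probe set, the dashed line is 133.4 and the dotted line is the filter of the fits at 63.3. No IGK point lies above the dashed line.

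The lambda constant region probe set 209138_x_at (IGLC1) had the highest intensity of all probe sets on each of the 6 arrays. It read 13758, 13592 and 15183 in untreated cells at 3, 6 and 12 h and 15324, 14668 and 14419 with enzastaurin. The treated and untreated values overlapped, and the highest was 1.13-fold the lowest. Its mean log2 ratio of enzastaurin over untreated was 0.06 (SE 0.10, 3 time-matched pairs, 95% interval −0.15 to 0.27).

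Most other bright lambda probe sets moved little. The IGL probe set 215121_x_at, annotated to a variable and a constant segment, read 12321, 12231 and 13791 untreated and 13338, 12950 and 13048 treated. The IGLC1 probe set 214677_x_at read 11612, 10782 and 12341 untreated and 11907, 11940 and 11417 treated. In both the treated values lay within the untreated range, and the 95% intervals of the mean log2 ratio were −0.18 to 0.26 and −0.21 to 0.25. The variable segment probe set 215379_x_at (IGLV1-44) stayed between 9476 and 10589. The remaining one, 217148_x_at, ranged more widely, from 6640 to 9954. It was above its time-matched control at each time, but the groups overlapped. Its mean log2 ratio was 0.23 (SE 0.12, 95% interval −0.03 to 0.48), which did not pass. Over the 5 bright lambda probe sets the highest array was between 1.12 and 1.5 times the lowest. All 5 have the suffix _x_at, which marks probes that can bind other transcripts. They were among the brightest on each array, and whether such signal could still rise was not tested.

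Heavy chain signal rested on few probe sets. The brightest, 211868_x_at, is annotated to constant genes of several classes, so it does not tell which class was read. It gave 6384, 8359 and 7287 untreated and 7621, 9530 and 8989 treated. Each treated value was above its time-matched control, with log2 ratios of 0.26, 0.19 and 0.30, but the groups overlapped. The mean ratio was 0.25 (SE 0.12, 95% interval −0.01 to 0.51, limma, Benjamini-Hochberg adjusted p = 0.909).

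The probe sets annotated to no genes other than the alpha constant genes were weak. The first, 216318_at, had a geometric mean of 33.0, and 217022_s_at had one of 6.83. Both were below the 133.4 of the other cell types' markers. The 4 probe sets annotated to IGHG1 alone, chosen after their values were seen, disagreed with each other: 216892_at and 217369_at had geometric means of 250.1 and 210.9, and 215721_at and 217222_at had 3.8 and 5.16. An annotation to 1 class does not show which class the cells made.

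**Figure D2:**
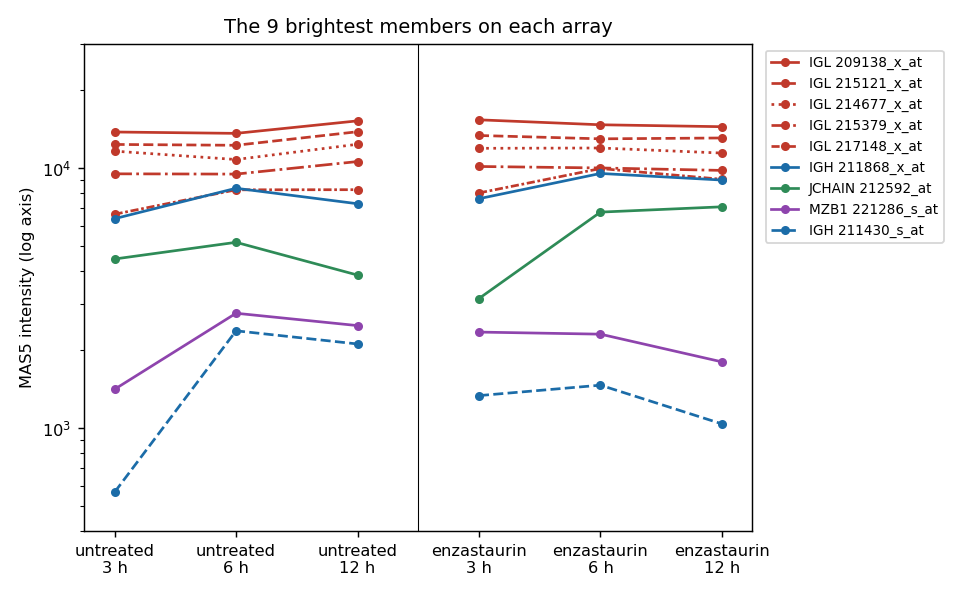
MAS5 intensity (log axis) of the 9 members with a geometric mean of 1000 or more on each array, untreated at the left and enzastaurin at the right, by hour. The lambda lines are nearly flat except that of 217148_x_at, which ranges from 6640 to 9954. JCHAIN, MZB1 and 211430_s_at cross between the groups.

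The fits were made over the 11108 brighter probe sets, those with a geometric mean of at least 63.3. Of the members 23 passed and 61 did not: 8 of 43 IGH, 5 of 19 IGK, 8 of 20 IGL, and both genes. The members nearest the filter were 52.1 on the outside (214768_x_at) and 64.8 on the inside (217360_x_at). Members called in any fit are thus those bright enough to be tested, not all members.

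No member passed the test for a difference between treated and untreated cells over the 3 times. In the limma fit with time as a block, 0 of 23 members had an adjusted p under 0.05, against 0.00900% of all probe sets tested, and the lowest was 0.902. At an unadjusted p under 0.05 there were 0 of 23 members and 621 of 11108 probe sets. That lowest value was of the IGK probe set 221651_x_at, which read 59.5, 92.3 and 98.2 untreated and 103.1, 135.5 and 147.0 treated. All treated values were above all untreated values, and the mean log2 ratio of 0.64 (SE 0.30) did not pass the test.

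JCHAIN read 4467, 5178 and 3874 untreated and 3148, 6766 and 7091 with enzastaurin. It was lower than its control at 3 h and higher at 6 and 12 h, with log2 ratios of −0.50, 0.39 and 0.87. Its highest arrays, enzastaurin at 6 and 12 h, had low ribosomal RNA values, and its lowest, enzastaurin at 3 h, had a high one. The untreated 3 h array, also low in ribosomal RNA, was below the untreated 6 h array. Its mean ratio was 0.25 (SE 0.22), or 0.05 (SE 0.18) with ribosomal RNA intensity as a covariate. The slope of the ratio per doubling of hours was 0.69 (SE 0.19, limma adjusted p = 0.0228). In the 6 h and 12 h pairs alone its ratio was 0.63 (SE 0.19), which did not pass (limma adjusted p = 0.0868). The slope call held in 2 of 9 alternatives. It was lost when array medians were made equal (limma adjusted p = 0.0772), when the filter was dropped (0.264) and without the intensity trend (0.494), and with log2 hours as a line and the enzastaurin 3 h array left out the slope was 0.17.

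MZB1 went the other way without passing a test. It read 1409, 2763 and 2476 untreated and 2338, 2295 and 1796 treated, with log2 ratios of 0.73, −0.27 and −0.46. Its 3 lowest arrays, the untreated 3 h and the enzastaurin 6 h and 12 h arrays, were those with low ribosomal RNA values. The slope was −0.60 (SE 0.26, limma adjusted p = 0.300), and the mean ratio was 0.00 (SE 0.25), or 0.20 (SE 0.23) with ribosomal RNA intensity as a covariate.

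**Figure D3:**
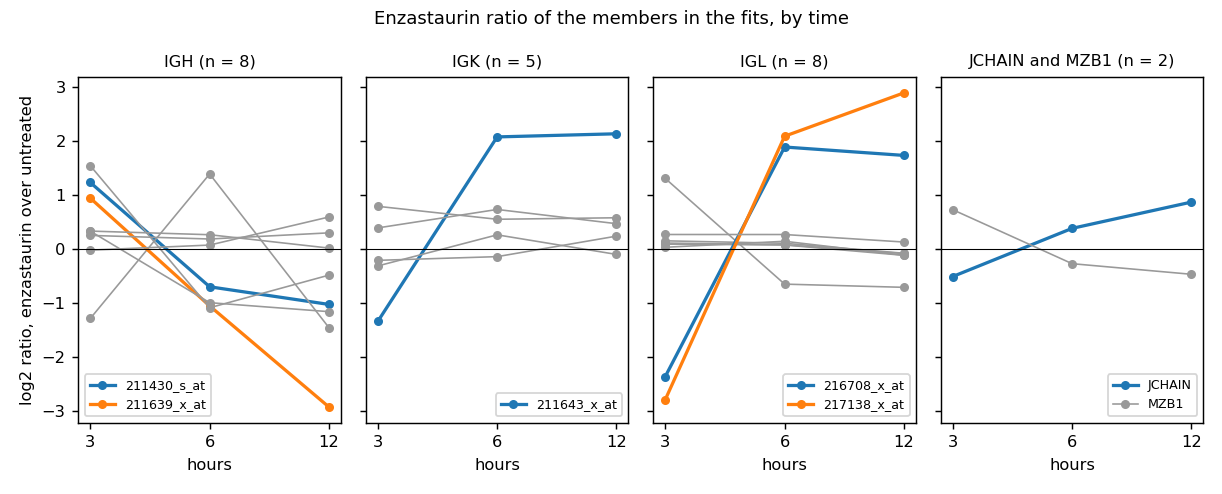
Log2 ratio of enzastaurin over untreated at 3, 6 and 12 h for the 23 members in the fits, by locus. Coloured lines are the 6 members called by the slope fit, and grey lines are the other 17. The called IGK and IGL lines start below 0 at 3 h and end above it at 12 h, and the called IGH lines do the reverse.

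In the slope fit 6 of 23 members had an adjusted p under 0.05, against 1.63% of all probe sets: 4 rose with time (0.657% of all) and 2 fell (0.972%). The slope fit has 1 residual degree of freedom. Its standard errors come from the variance of all probe sets at like intensity, not from each probe set's own spread. On simulated data the slope fit made more false calls than its threshold names. The simulation shuffled variances among probe sets, so it did not keep their tie to intensity. Whether its share of false calls holds for these data was not tested. Of the 6, 4 have the suffix _x_at, which marks probes that can bind other transcripts. It was as common among the tested members, with 17 of 23. In the 6 h and 12 h pairs alone 4 of the 23 were called, against 3.17% of all: 3 higher (1.39% of all) and 1 lower (1.78%). These 4 had been called by the slope fit too. The fit of these pairs uses arrays of the slope fit and also has 1 residual degree of freedom, so its calls are not separate support. The log2 ratio of 3' to 5' ACTB probe sets, a sign of RNA quality, was lower on the treated arrays of these pairs: 1.16 untreated against 0.57 treated at 6 h, and 1.60 against 0.86 at 12 h. At 3 h it was 1.89 untreated and 2.0 treated. The same ratio of GAPDH probe sets differed less: 0.23 untreated against −0.11 treated at 6 h, and 0.30 against 0.24 at 12 h. At 3 h the GAPDH ratio was 0.28 untreated and 0.23 treated. The part of these ratios in the calls was not tested.

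The 3 called light chain probe sets were weak ones. The IGLC1 probe set 217138_x_at read 229.7, 33.8 and 24.1 untreated and 33.4, 144.0 and 179.1 treated. Its highest value was the untreated 3 h array, its slope was 2.84 (SE 0.41, limma adjusted p = 1.59e-08). It was also called higher in the 6 h and 12 h pairs (limma adjusted p = 0.00258), but both controls there were under the markers' median of 34.1, so the size of its ratios and slope is not a measured fold. The IGLJ3 probe set 216708_x_at was high and low on the same arrays, with 206.0, 37.6 and 35.7 untreated and 40.3, 139.5 and 118.7 treated. Its slope was 2.04 (SE 0.41, limma adjusted p = 0.000246), a call that held in 1 of 9 alternatives. With log2 hours as a line its slope was 0.86 without the untreated 3 h array and 1.03 without the enzastaurin 3 h array, and that of 217138_x_at was 1.70 and 1.94.

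The IGK probe set 211643_x_at read 158.9, 75.6 and 63.9 untreated and 63.0, 319.3 and 280.8 treated. Its slope was 1.74 (SE 0.39, limma adjusted p = 0.00166), and it was also called higher in the late pairs (limma adjusted p = 0.00258). The slope call held in 2 of 9 alternatives, and with log2 hours as a line and the enzastaurin 3 h array left out the slope was 0.47. All 3 probe sets were high on the untreated 3 h, enzastaurin 6 h and enzastaurin 12 h arrays. Those are the arrays with ribosomal RNA probe sets at a mean log2 of 3.02 to 3.79. With ribosomal RNA intensity as a covariate the mean log2 ratio of 217138_x_at was −0.23 (SE 0.36), against 0.73 without. That of 216708_x_at was −0.36 (SE 0.34) against 0.42, and that of 211643_x_at 0.32 (SE 0.32) against 0.96. The slope fit and the fit of the late pairs had no such covariate, so the part of that division in their calls was not tested.

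The weak probe set 217138_x_at and the bright 217148_x_at are listed with the same source sequence. The bright one, also lambda and chosen after its values were seen, gave log2 ratios of 0.27, 0.27 and 0.13, against −2.78, 2.09 and 2.89 for the weak one. Their geometric means were 8298 and 73.8. The ratios of probe sets listed with 1 source sequence thus differed in sign at 3 h and in size at 6 and 12 h.

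**Figure D4:**
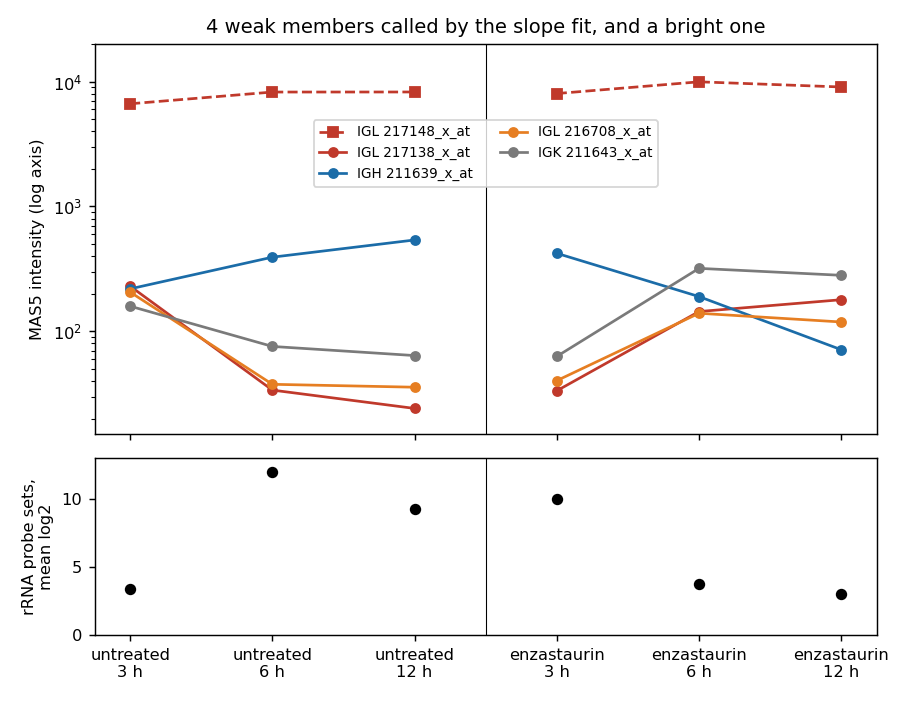
Top, MAS5 intensity (log axis) on each array of 4 weak members called by the slope fit and of the bright 217148_x_at (dashed, squares). Bottom, mean log2 intensity of the ribosomal RNA probe sets. The 3 light chain probe sets are high where the ribosomal RNA points are low, 211639_x_at is low there, and the bright one moves less than these.

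The 2 called heavy chain probe sets fell with time relative to control. The IGH probe set 211639_x_at read 218.8, 392.3 and 538.9 untreated and 421.3, 189.7 and 71.2 treated, a slope of −1.93 (SE 0.38, limma adjusted p = 0.000153). In the late pairs it was lower, at −1.98 (SE 0.41, limma adjusted p = 0.0128). Its 3 lowest arrays were again those with low ribosomal RNA values. Over the 3 times its mean log2 ratio was −1.01 (SE 0.55), or −0.50 (SE 0.34) with ribosomal RNA intensity as a covariate. The IGH probe set 211430_s_at read 566, 2365 and 2104 untreated and 1332, 1461 and 1037 treated, with a slope of −1.13 (SE 0.30, limma adjusted p = 0.0159). Its untreated 3 h array was the lowest of the 6, and with log2 hours as a line and that array left out the slope was −0.01. The brightest heavy chain probe set, 211868_x_at, had a slope of 0.02 (SE 0.15).

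By locus, the called members included, the median log2 ratio of the 8 tested IGH members was 0.34, −0.31 and −0.75 at 3, 6 and 12 h, that of the 5 tested IGK members −0.21, 0.55 and 0.47, and that of the 8 tested IGL members 0.10, 0.13 and −0.08. The IGK median at 12 h was the ratio of 217480_x_at, which was taken as kappa by name alone. Within IGH, 217360_x_at had log2 ratios of 1.54, −1.08 and −0.48, and 211637_x_at had −1.28, 1.39 and −1.45. These members of 1 locus thus went in opposite directions at 3 and 6 h, and both were below 0 at 12 h. Both were weak, with geometric means of 64.8 and 83.0. Both were chosen after their values were seen, and neither was called. Quantile normalization moved the 12 h median over all probe sets from −0.16 to −0.02.

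The 61 members under the filter have low means by its definition. The highest single array value among them was 161.4 in IGH (216558_x_at, enzastaurin 6 h, above the 133.4 of the markers), 86.6 in IGK and 76.3 in IGL. Their highest geometric means were 51.9, 52.1 and 39.8. Over all members, the median geometric mean was 13.4 in IGH, 26.9 in IGK and 37.2 in IGL, against 34.1 for the other cell types' markers.

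At single times, with 1 array on each side and no test, 3 of 23 members were at least 2-fold higher at 3 h (2.13% of all probe sets) and 4 lower (3.06%). At 6 h 4 were higher (5.87%) and 2 lower (3.61%), and at 12 h 3 were higher (4.38%) and 4 lower (9.92%). No member with a geometric mean of 1000 or more was among them except 211430_s_at. The median log2 ratio of the 23 was 0.16, 0.15 and −0.07 at 3, 6 and 12 h, against −0.05, 0.07 and −0.16 over all probe sets tested.

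Other genes of antibody production were taken from lists with 1 probe set a gene. Of 8 tested transcription factors of immunoglobulin genes, 1 was lower in the 6 h and 12 h pairs (1.78% of all): IRF4, a factor that plasma cells need, at −1.60 (SE 0.26, limma adjusted p = 0.00287). It read 1590, 2901 and 3058 untreated and 1403, 788 and 1221 treated, so every treated value was below every untreated one. Over the 3 times its mean log2 ratio was −1.13 (SE 0.30), which did not pass (limma adjusted p = 0.457). Nor did its slope pass (limma adjusted p = 0.413). XBP1, which drives secretory genes, had a mean log2 ratio of 0.21 (SE 0.15). POU2AF1, the coactivator of octamer factors, had one of −0.23 (SE 0.19), and neither passed.

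Of 17 tested genes of folding and assembly, 2 were called, both lower, by the slope fit (0.972% of all) and in the late pairs (1.78% of all). SDF2L1, a component of endoplasmic reticulum chaperone complexes, read 432, 572 and 578 untreated and 806, 250 and 173 treated, with a slope of −1.32 (SE 0.37, limma adjusted p = 0.0308). ERP29, an endoplasmic reticulum protein of secretory folding, read 777, 1506 and 1269 untreated and 1176, 432 and 370 treated, with a slope of −1.19 (SE 0.34, limma adjusted p = 0.0323). Both were above control at 3 h and below it at 6 and 12 h, and both were called lower in the late pairs. Both had their 3 lowest values on the arrays with low ribosomal RNA values, whose part in these calls was not tested. HSPA5, the chaperone that holds unpaired heavy chains, had a mean ratio of −0.07 (SE 0.21). None of 4 genes of mRNA processing, 6 partners of the B cell receptor, 1 recombination gene and 2 genes of transport and Fc receptors was called in any fit.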

How the data were processed

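Per the submitters' processing notes, the authors used MAS5, and the deposited table holds its intensity of each probe set on a linear scale. Its version and scaling target were not given in the sources used here. No detection calls or saturation flags were used. The deposited scaling was kept, values under a floor of 1 were set to 1 before log2, and AFFX controls were left out. The 50 percent of probe sets with the higher mean log2 (geometric mean of 63.3 or more) were fitted separately with limma 3.58.1 in R 4.3.3, with time as a block and an intensity trend in the prior variance. The treatment fit had 2 residual degrees of freedom and the slope fit 1. Benjamini-Hochberg adjustment ran over all 11108 probe sets, with 0.05 as the threshold. The treatment and slope fits were tested on simulated data, where the slope fit made more false calls than its threshold names. Variances there came from the treatment fit and were shuffled among probe sets, unlike in the data. The labels do not say that arrays came from separate cultures, so the p-values reflect only how these 6 arrays vary, which may be technical. In the slope fit they rest on the spread of all probe sets at like intensity, not on that of the single probe set.

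Symbols came from the platform annotation. Left out were 16 probe sets near the definition, 6 of them with a symbol outside the loci. Named in full were JCHAIN, MZB1, the 3 brightest probe sets of each locus, members called in a fit, and each locus's largest and smallest mean ratio. The members, lists and tests were chosen with earlier results of these data known. Alternatives changed the scaling, filter, floor, prior, block, covariate, pairs, suffix, fold and background level.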

Additional observations from a re-analysis of the deposited data

Results flagged for a closer look

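In 6 members the enzastaurin ratio differed between times by the slope fit (limma, adjusted p under 0.05 over all probe sets tested). The slopes, in log2 ratio per doubling of hours, were 2.84 for 217138_x_at, 2.04 for 216708_x_at, 1.74 for 211643_x_at and 0.69 for the JCHAIN probe set 212592_at. They were −1.93 for 211639_x_at and −1.13 for 211430_s_at. Of 9 alternatives, 217138_x_at and 211639_x_at were called in 6, 211643_x_at and JCHAIN in 2, and 216708_x_at and 211430_s_at in 1. The 9 include the fits with log2 hours as a line, which called no member and at most 12 of all probe sets. Those fits thus do not tell the 6 members apart.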

How the results depend on the processing

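The treatment fit called 0 members, and 4 without the 3 h pair. Over all probe sets it called 1; this was 0 with no filter, with no intensity trend, and without the 6 h or the 12 h pair, 3 with no replicate block, 4 with equal medians of the kept probe sets, 73 with ribosomal RNA intensity as a covariate and 352 without the 3 h pair. The slope fit called 6 members of 181 probe sets. It called 2 with equal medians of all probe sets (49 over all), no filter (39), no intensity trend (32) or equal medians of the kept probe sets (15), and 2 without the suffix _x_at; quantile normalization gave 73 over all. With log2 hours as a line it called 0 members (0 over all), also without the untreated 3 h array (0) or the enzastaurin 3 h array (12). The line fits and the medians of kept probe sets were chosen after seeing the data.

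With no filter, 12 of 84 members were 2-fold higher and 13 lower at 3 h, 18 and 12 at 6 h, and 14 and 16 at 12 h. The members added by this had geometric means of 52.1 or less. At a fold of 1.5, 6 of 23 were higher at 3 h, 5 lower at 6 h and 5 higher at 12 h. The share over all probe sets was not counted at these settings, so the counts are not a result about the members. Above the markers' median were 32 members.

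Mean log2 ratios, none called, changed sign in 19 cases. Without the 6 h pair they were 0.11 (211430_s_at), −0.038 (214677_x_at), 0.30 (215035_at) and −0.31 (216708_x_at). Without the 12 h pair they were 0.27 (211430_s_at), −0.0595 (JCHAIN), 0.33 (215035_at), −0.23 (216708_x_at) and −0.35 (217138_x_at). Without the 3 h pair they were 0.0849 (216207_x_at) and −0.37 (MZB1). With ribosomal RNA as a covariate they were 0.22 (211430_s_at), 0.36 (215035_at), −0.36 (216708_x_at) and −0.23 (217138_x_at). Equal medians of all probe sets gave −0.0046 (214677_x_at) and −0.0283 (MZB1), and those of the kept gave 0.0536 (215035_at) and 0.0209 (216207_x_at). The cause was not tested. Signal over background limits the 61 members under the filter, and 1 array per treatment and time limits the rest.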

Other observations

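Some probe sets just outside the definition were bright and others weak. The IGLL5 probe set 217235_x_at read 4893, 7109 and 6145 untreated and 6399, 7828 and 6556 treated. A second IGLL5 probe set, 216566_at, listed with the same source sequence, lay between 5.3 and 29.1. The probe set 216412_x_at, annotated to a lambda constant gene and to CKAP2, lay between 40.0 and 48.6, and 216984_x_at, annotated to lambda segments and to CKAP2, between 4710 and 7319. The IGLL3P probe set 215946_x_at lay between 7902 and 10141. The IGLL1 probe set 206660_at, for a surrogate light chain of precursor B cells, lay between 5.2 and 18.9.

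The members' low probe sets were not all silent to the same degree. Of the 84, 12 were below an intensity of 1 on at least 1 array and 3 were listed at 0 on at least 1. The IGLV6-57 probe set 215035_at read 60.2, 154.0 and 143.3 untreated and 149.3, 98.4 and 87.9 treated. The IGKC probe set 216207_x_at read 88.7, 80.8 and 73.8 untreated and 71.6, 97.2 and 69.1 treated.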
